A study of Mus musculus with 5 samples.

Results

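The genes of the cytosolic ribosome were examined in GFP-positive lung cells of SPC-GFP mouse pups, sorted by flow cytometry at postnatal day 2 (birth counted as day 0). The members are the genes named Rpl, Rps or Rplp with a number, and Rpsa, that had a probe set annotated to that symbol alone; of several such probe sets, the one with the highest mean signal stands for the gene. This gave 49 of 18194 genes. They comprise 20 core proteins of the large subunit, 2 proteins of its stalk, 21 core proteins of the small subunit and 6 paralogues of core proteins.

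There were 5 arrays in 1 group, each of a sample labelled a biological replicate, and there is no second condition. All pups came from matings of the SPC-GFP line with outbred ICR mice, and lungs were chosen by GFP before dissociation with trypsin and EDTA. SPC is the common abbreviation of surfactant protein C, a marker of alveolar type 2 cells; the labels do not name the promoter of the transgene, and they do not say whether a replicate was 1 pup or several. Titles call the cells alveolar type 2 cells, the source name adds that they are differentiating, and the design text calls them ciliated. With 1 group, p-values compare no conditions. They rest on the spread between these samples and set a gene against the array background or its variance against a fitted variance.

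The ribosome reads messenger RNA and joins amino acids into protein. Its small subunit binds the message and matches codons, and its large subunit holds the centre that forms peptide bonds. Each subunit is built in the nucleolus from ribosomal RNA and a set of small, mostly basic proteins, most of them needed in equal numbers. Vertebrate messages for these proteins typically begin with a tract of pyrimidines, the 5′ terminal oligopyrimidine or TOP tract, through which mTOR signalling and the RNA-binding protein Larp1 control their translation. Alveolar type 2 cells are secretory cells that make large amounts of surfactant proteins.

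The start sites of members are shown first because they are a feature that the choice of genes did not use. RefSeq (GRCm38.p6) windows were used for 43 of the 49 genes, 51 windows on 15 chromosomes. None was used for Rpl7, Rpl8, Rps14, Rps20, Rps29 and Rps4l. Member windows on a chromosome set aside beforehand were left out, so this does not show that a gene lacks an annotated start. The groups of all windows and of mitochondrial ribosomal protein genes, given below for comparison, were not filtered in this way. The lines give 30 bases, 16 before the annotated first base and 14 from it on, 5′ to 3′ on the strand of the gene. Capitals mark the longest run made only of C and T that began with C within 10 bases of the annotated start, where it reached 6 bases. Core members with and without a run, the member with the largest SD among those above background (Rpl14) and the paralogue pairs with windows are shown.
Rps6 (chr4:86857354-86857383, minus strand): taagcggaagtcgggCCTCTTTTTCgtgac
Rpl35 (chr2:39005118-39005147, minus strand): tcggccccgCCCTTTCCTCTTTCTCTCgaa
Rps10 (chr17:27635231-27635260, minus strand): tgcgccgcgcacgCCCCTTCCTTTCCagcc
Rps18 (chr17:33955652-33955681, minus strand): atacgtcacttccgCTCTCTCTTCCacagg
Rpl38 (chr11:114668564-114668593, plus strand): aagcggaagcctcgttCTTTCCCCgttctc
Rpl14 (chr9:120571501-120571530, plus strand): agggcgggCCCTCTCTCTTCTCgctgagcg
Rps27 (chr3:90213635-90213664, minus strand): gatttccgctttcgCTCCTTTCCggcggtg
Rps27l (chr9:66946070-66946099, plus strand): tccactCCTCCCCgccgcctctatcccgga
Rpl39 (chrX:37085209-37085238, minus strand): ccctaagctccgcctctagcgaCTTCTTCT
Rpl39l (chr16:10170212-10170241, plus strand): gctcccaggCCTTTCCggatttccggtggt
Rpl22 (chr4:152324420-152324449, plus strand): gcgctgcttctggaatgttccagctcccac
Rpl22l1 (chr3:28805492-28805521, plus strand): cgtgcggcgcaagcccgttCTCTTCCCacg
Rpl41 (chr10:128549155-128549184, minus strand): acacacgggccggctcggaagtgacgacac
Rplp0 (chr5:115559451-115559480, plus strand): cgtcttcgggtttcgaggaccgcctggttc

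A run of at least 6 such bases lay near the start in 24 of 51 member windows (47.1%), against 18.5% of all 32851 windows of the same table. Runs were marked in Rps6, whose product is the classical substrate of S6 kinases, and in Rpl35, Rps10, Rps18 and Rpl38. None was marked in Rpl41, the gene of the smallest ribosomal protein, in Rplp0, the base of the stalk, or in either window of Rpl22. The stricter form, C at the annotated first base followed by at least 4 bases of C or T, was found in 8 windows (15.7%) against 2.51% of all windows. All 8 belonged to core members, of which 44 windows were searched, and 0 of 7 paralogue windows, from 5 genes, had it. The looser run near the start was found in 3 of these 7 (42.9%) and in 21 of the 44 (47.7%). With so few paralogue windows, the 0 does not set the paralogues apart. A run near the start was present in 16 of 75 windows of the mitochondrial ribosomal protein genes (21.3%), and 0 of these had the stricter form. These are matches of letters at annotated starts, with no control for base composition, and windows of 1 gene can overlap.

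Promoters of 300 bases, from 250 before to 50 after the annotated start, were searched on both strands for short motifs, the first of which can share its last 3 bases with the second. The motif CCGGAAG, a core recognised by ETS family factors such as GABP, was found in 21 of 51 member promoters (41.2%) and in 8.86% of all promoters. AAGATGG, a core of the site of the zinc finger protein YY1, was found in 8 (15.7%) against 6.34%. TATAAA, the TATA box, was found in 6 (11.8%) against 13.6%. In the mitochondrial ribosomal protein promoters the shares were 34.7%, 17.3% and 6.67%.

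Signals are the deposited values, on a scale taken as log2 from its range, with array medians of 7.12 to 7.19 and array maxima of 15.13 to 15.24. As background served the 95th percentile of the signals of 76 chemosensory receptor genes, which was 5.45 to 5.71 on the 5 arrays. Of all genes, 74.5% were called above it. Markers of alveolar type 2 cells were called in 18 of 18 measured genes and ciliated markers in 21 of 23, without Dnah5 and Spag17. For other cells the gate could hold, the markers called were 14 of 14 alveolar type 1, 8 of 10 club and secretory, 16 of 17 fibroblast and smooth muscle, 13 of 13 endothelial, 16 of 17 immune and 3 of 8 erythroid genes; the club share (80%) is near that of all genes and the erythroid share (37.5%) below it. Against a higher background, taken from organ-restricted genes, 18 of 18 alveolar type 2 and 14 of 23 ciliated markers were called, beside 53.8% of all genes. Ciliated genes were highest in replicate 1 and fibroblast and immune genes lowest in replicate 3. In such bulk samples fewer cells of a type and less RNA per cell cannot be told apart.

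Ribosomal protein genes gave signal above background in 45 of 49 members (91.8%), in limma's moderated test, one-sided, with p adjusted by Benjamini-Hochberg and called under 0.05; of all genes, 74.5% were called. Every called member lay above background on 5 of 5 arrays, and the largest adjusted p among them was 3.98e-10 (Rpl39). Means of the 49 ran from 3.40 to 15.03 with a median of 14.25, against a median of 10.04 for all genes called. With organ-restricted genes as background, at 7.81 to 8.78 on the arrays, 44 members were called, against 53.8% of all genes, and Rpl39 was not.

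**Figure D1:**
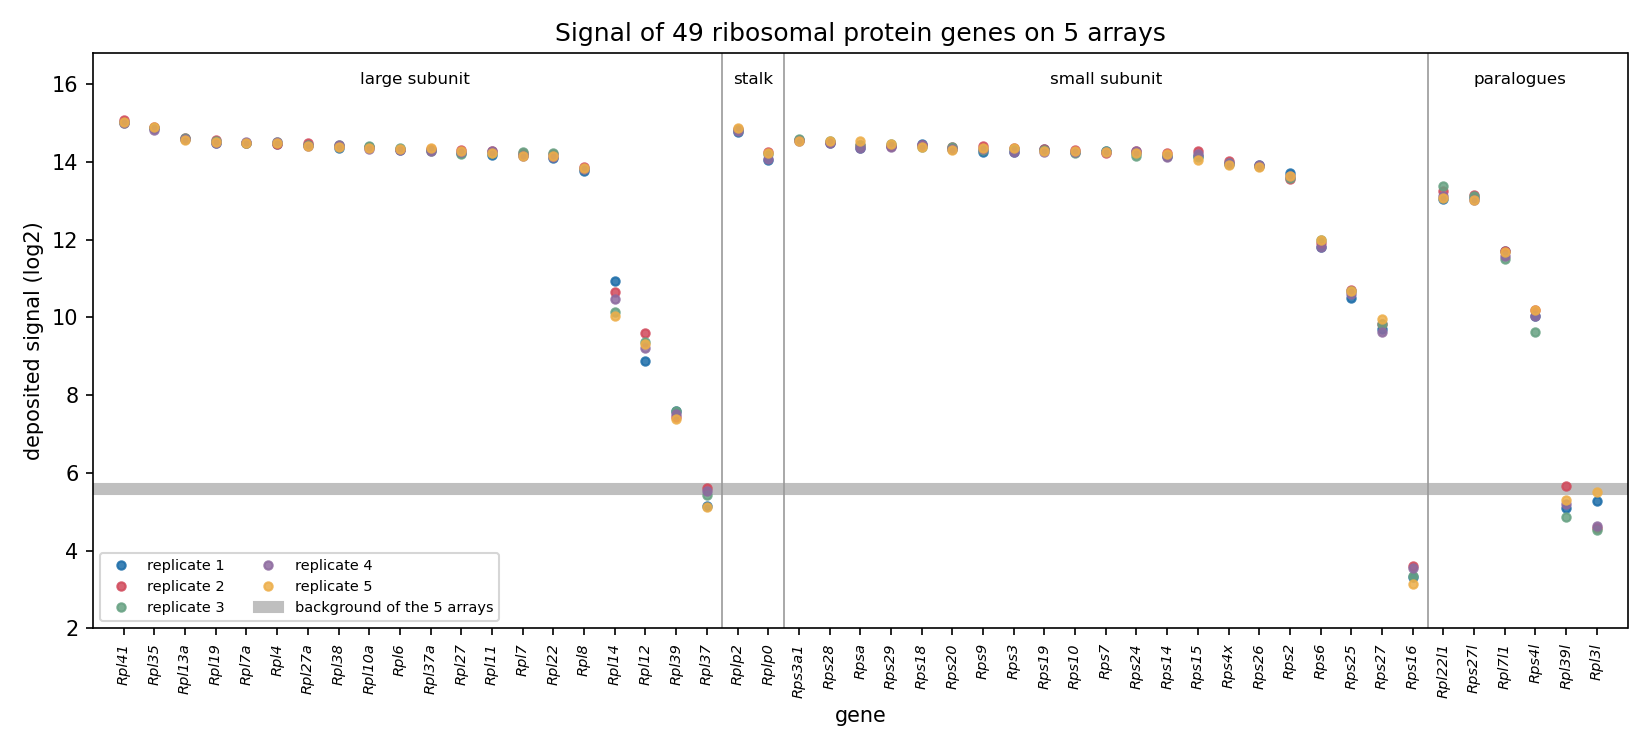
Deposited log2 signal (vertical axis) of the 49 ribosomal protein genes (horizontal axis), with 1 coloured point per replicate and the grey band spanning the background of the 5 arrays. The replicates nearly coincide for the 37 genes with means over 13, and 4 genes (Rpl37, Rps16, Rpl39l and Rpl3l) lie in or below the band.

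Of the members, 37 had means over 13, a limit chosen after the values were seen, and 12 lay below it. The values next to it were 13.08 (Rps27l) and 11.90 (Rps6). Signals of different probe sets depend on their probes, so this split is not an order of transcript levels. It followed the annotation: all 28 core members whose symbol stood on no other probe set together with further symbols were over 13, as were 7 of the 15 core members whose symbol did. The other 8 of these 15 (Rpl12, Rpl14, Rpl37, Rpl39, Rps6, Rps16, Rps25 and Rps27) and 4 of the 6 paralogues made up the 12. Probe sets of the plain type, with names ending in _at alone, represented 11 of these 12 and 4 of the 37.

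Probe sets that carry a member symbol and further symbols numbered 110 and are not used for any gene. Of these, 106 lay above background on every array, 80 had means over 13, and their median mean was 14.19. Another 28 symbols that fit the same name pattern, among them Rpl3, Rpl5, Rpl10 and Rplp1, stood only on such probe sets and were not analysed here. A low value of a member therefore describes its own probe set and does not show that its message was scarce.

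In the large subunit, Rpl7a read 14.48, 14.48, 14.50, 14.51 and 14.49 in replicates 1 to 5 (14.49 ± 0.013, SD, n = 5). Rpl6 read 14.31, 14.34, 14.35, 14.31 and 14.34 (14.33 ± 0.019). These were among the 4 called members with the smallest SD. Rpl11, which together with Rpl5 can bind and inhibit Mdm2 when ribosome assembly fails, read 14.19, 14.29, 14.23, 14.28 and 14.24 (14.25 ± 0.040). Rpl38, known from mice with altered axial skeleton, read 14.36, 14.42, 14.44, 14.43 and 14.38 (14.41 ± 0.033). Rpl41 read 15.03, 15.08, 15.00, 15.01 and 15.03 (15.03 ± 0.029), close to the array maxima. From the lowest to the highest array these genes spanned 1.02-fold to 1.07-fold.

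Among called members the largest SDs were also found in this subunit. Rpl14 read 10.94, 10.66, 10.13, 10.48 and 10.03 (10.45 ± 0.38), a 1.88-fold range. Replicate 1 was highest and replicates 3 and 5 lowest. Among called members it alone had a spread above that of genes of like signal at an unadjusted p under 0.05. It did not pass after adjustment (F test across all genes called, with limma's fitted variance, adjusted p = 0.879). Its symbol also stood on 5 probe sets with several symbols. Rpl12, which sits at the base of the stalk, read 8.89, 9.59, 9.37, 9.22 and 9.33 (9.28 ± 0.26), lowest in replicate 1 and highest in replicate 2. Rpl39, a very short protein lining the exit tunnel, read 7.58, 7.43, 7.61, 7.50 and 7.38 (7.50 ± 0.096). Its signal stood 1.97 log2 units above background. Rpl37 read 5.14, 5.61, 5.44, 5.54 and 5.13 (5.37 ± 0.23), at background (limma adjusted p = 1), on a probe set that can hybridise to related transcripts.

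The stalk recruits the translation factors that drive each elongation step. Its base Rplp0 read 14.06, 14.26, 14.19, 14.06 and 14.24 (14.16 ± 0.096), low in replicates 1 and 4 and high in 2, 3 and 5. Rplp2, one of the flexible arms, read 14.77, 14.85, 14.82, 14.80 and 14.87 (14.82 ± 0.042), in the same pattern. The spans were 1.15-fold and 1.08-fold, and neither gene passed the spread test (limma-based F test, adjusted p = 0.996 for both).

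In the small subunit, Rps7 and Rps26 varied least, at 14.26 ± 0.015 and 13.90 ± 0.015. Rps19, the gene most often mutated in Diamond-Blackfan anaemia, read 14.32, 14.32, 14.31, 14.25 and 14.28 (14.30 ± 0.028). Rps14, whose loss causes the anaemia of the 5q- syndrome in people, read 14.16, 14.22, 14.14, 14.12 and 14.20 (14.17 ± 0.041). Of the 19 genes listed for Diamond-Blackfan anaemia, 11 had a member here and all 11 were called (91.8% of all members, 74.5% of all genes), with a median SD of 0.032. Rps3, at the entry of the message, read 14.26, 14.35, 14.33, 14.25 and 14.35 (14.31 ± 0.050). Rpsa, also known as a laminin receptor, read 14.35, 14.43, 14.43, 14.36 and 14.54 (14.42 ± 0.075), with replicates 1 and 4 lowest.

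Rps6 read 11.82, 11.92, 11.98, 11.81 and 11.98 (11.90 ± 0.083), again with replicates 1 and 4 lowest. Rps27, a zinc finger protein of the small subunit, read 9.71, 9.83, 9.84, 9.62 and 9.96 (9.79 ± 0.13). Rps16 read 3.33, 3.61, 3.34, 3.56 and 3.14 (3.40 ± 0.19), below background on 5 of 5 arrays. Its symbol also stood on 2 probe sets with several symbols, so its value does not bear on whether Rps16 was expressed.

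The paralogues are relatives of core proteins, some of them with more restricted use. Rpl22l1, the partner of Rpl22, read 13.05, 13.26, 13.37, 13.12 and 13.08 (13.18 ± 0.13), and Rpl22 itself read 14.09, 14.20, 14.22, 14.13 and 14.16 (14.16 ± 0.051). Both were lowest in replicate 1 and highest in replicate 3. Rps27l, a relative of Rps27 known as a p53 target, read 13.07, 13.16, 13.12, 13.02 and 13.03 (13.08 ± 0.058). Rpl7l1, a homologue of Rpl7, read 11.71, 11.71, 11.49, 11.59 and 11.68 (11.64 ± 0.094), and Rpl7 itself had 14.19 ± 0.047. Rps4l, a relative of the X-linked Rps4x, read 10.03, 10.19, 9.63, 10.04 and 10.18 (10.01 ± 0.23), with replicate 3 lowest, and Rps4x had 13.96 ± 0.037. These 4 were called.

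The other two paralogues were not above background. Rpl39l, known from the testis, read 5.10, 5.65, 4.87, 5.21 and 5.32 (5.23 ± 0.29), and 1 of 5 arrays exceeded background. Rpl3l, which replaces Rpl3 in heart and skeletal muscle, read 5.29, 4.58, 4.54, 4.62 and 5.51 (4.91 ± 0.45), and 0 of 5 did. For both the limma adjusted p was 1. The called share of paralogues was 4 of 6, beside 74.5% of all genes and 41 of 43 core members.

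Members with several probe sets, 24 of the 49, show how much a value depends on the probes (105 probe sets in all). The gap between the highest and the lowest mean of a gene was over 5 log2 units in 12 of the 24 and under 1 in 7. Rps15, Rps29, Rps28, Rps14, Rps7, Rpl27 and Rpl7l1 had the small gaps. The widest gaps were those of Rps3, with means of 14.31, 10.68 and 3.67, Rps24, with 14.23 to 4.98 over 6 probe sets, and Rpsa, with 14.42 and 5.29. Rpl27a had 14.43 and 5.83, and Rps18 14.42 to 6.13 over 6. The 3 members with a probe set of mean below background were Rps3, Rps24 and Rpsa, although each was called by the probe set that represents it.

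**Figure D2:**
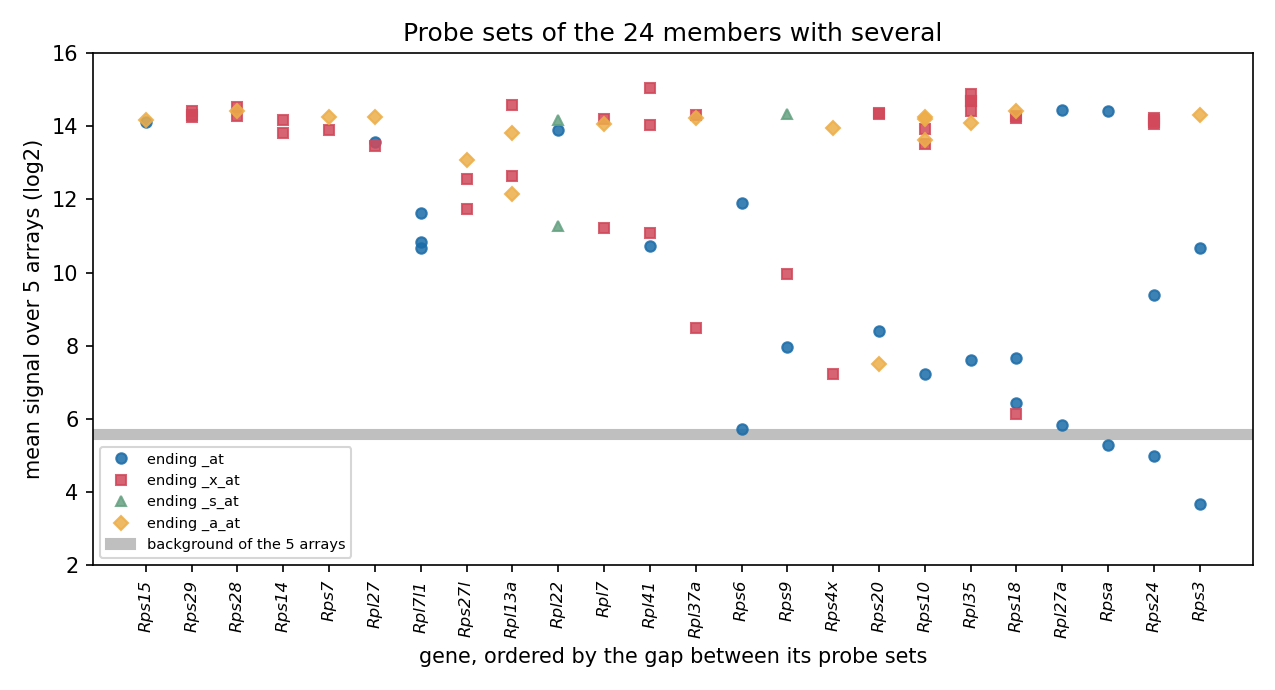
Mean log2 signal over 5 arrays (vertical axis) of each probe set of the 24 ribosomal protein genes with several (horizontal axis, ordered by the gap between their probe sets); symbols give the type of the probe set and the grey band the background. Probe sets of plain type, ending in _at, make up 18 of the 30 points up to 13, while 45 of the 57 points of the other types exceed 13.

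Of all 105 probe sets, the 71 with names ending in _x_at, _s_at or _a_at, types that can hybridise to several transcripts, had a median mean of 14.19, and 70 lay above background on every array. The 34 of plain type had a median of 9.59, and 26 lay above background on every array. A second Rps9 probe set, named after its values were seen, read 11.22 in replicate 1 and 9.49 to 9.85 in the others, while the one representing the gene read 14.26 to 14.41. The part of cross-hybridisation in these gaps was not tested.

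The members varied little between replicates. The SD over the 5 arrays had a median of 0.040 among the 45 called members, against 0.154 over all genes called. The members' median was 0.062 with the median over a gene's probe sets and 0.096 over the 23 members called from plain probe sets alone. In 40 of the 45 the highest and lowest array differed by less than 1.2-fold. No member passed the spread test, in which limma's fitted variance for genes of like signal is the yardstick. The share was 0 of 45 at an adjusted p under 0.05, and 0% of all genes called above background. At an unadjusted p under 0.05 the spread test found 1 member (2.22%) and 5.61% of all genes called above background. The fit without a trend found 0 members too at an adjusted p under 0.05. The variance ratio of 38 of the 45 lay below the median ratio of all genes called above background. Among genes with means over 13, the 37 members had a median SD of 0.034 and the 583 other genes 0.073; medians of their means were 14.31 and 13.38, so the members also sat higher in that band.

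**Figure D3:**
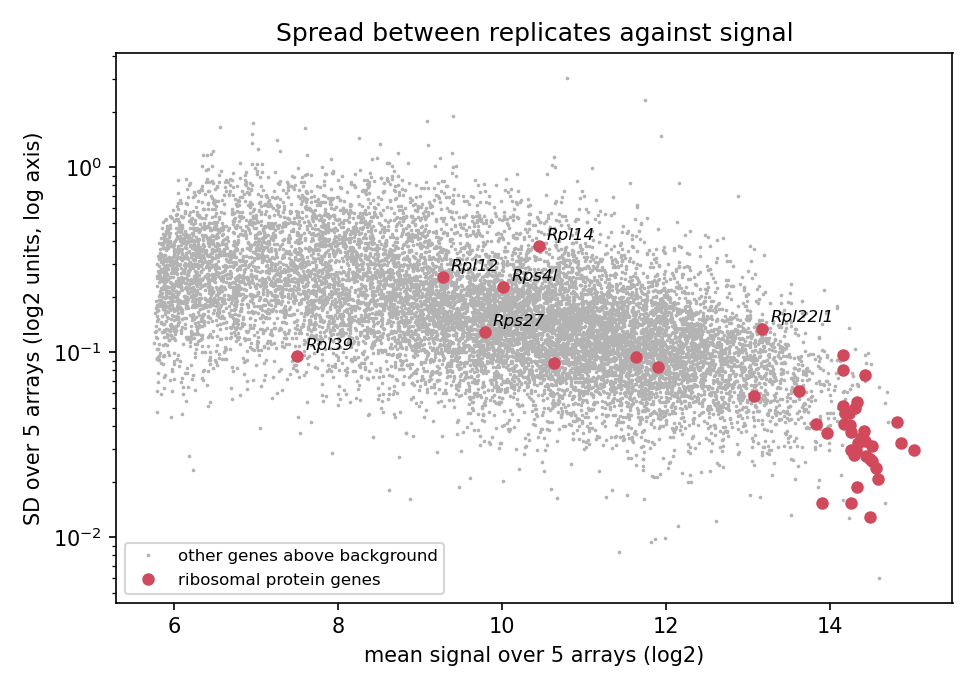
SD over the 5 arrays (vertical log axis, log2 units) against mean log2 signal (horizontal axis) for the 45 ribosomal protein genes called above background, in red, and all other genes called, in grey. Most members lie at the lower right, with SDs below 0.1 in 40 of 45, and Rpl14, at 0.38, is the farthest up.

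Many members shared the replicate with their highest value. Replicate 2 was highest in 22 of the 45 called members (48.9%), against 16.2% of all genes called, and replicate 4 in 1 against 13.5%. Replicates 1 and 4 were lowest in 13 members each, against 22.8% and 18% of all genes called, and replicate 2 in 3 against 19.9%. Replicate 3 was highest in 10 (all genes called 26.6%) and lowest in 7 (all genes called 24.6%). Deviations were small: the score of an array, here the average over the 45 of signal minus gene mean, from which the median of the same over all called genes was subtracted, was −0.0095, 0.046, −0.0055, −0.0050 and −0.018 in replicates 1 to 5. The range was 0.065 log2 units or 1.05-fold, and it was 0.011 without replicate 2. The list was chosen with earlier results of these data known, so nothing is supported by this pattern. Replicate 2 was highest under each of the 12 settings with all 5 replicates. Its distance from the others exceeded Dixon's limit for an outlier in 4 of them and not in the other 8. The 4 include both the deposited scaling and median centring, which by construction gave the same scores.

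**Figure D4:**
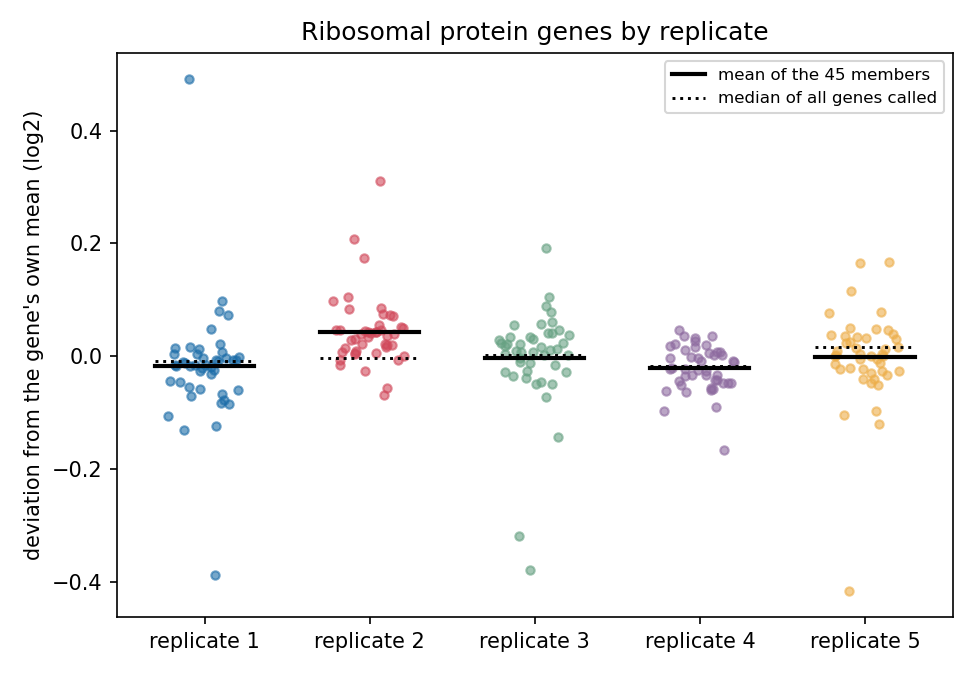
Deviation of each of the 45 called members from its own mean (vertical axis, log2 units) in replicates 1 to 5 (horizontal axis), with a solid bar for the mean of the members and a dotted bar for the median of all genes called. The solid bar stands above the dotted bar in replicate 2, where the score is 0.046, and near it in the others.

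The share of members highest in replicate 2 moved with the scaling of the arrays. After quantile normalization replicate 2 was highest in 13 of the 45 (28.9%, all genes called 17.4%) and after median centring in 29 (64.4%, all genes called 20.2%). The lowest replicates moved as well: after median centring replicate 4 was lowest in 1 of the 45, replicate 1 in 20 and replicate 5 in 15, and after quantile normalization replicates 1 and 4 were lowest in 14 each. Scores under quantile normalization were −0.0089, 0.030, 0.0022, −0.0098 and −0.0039, with a range of 0.040. In that scaling the small subunit members had their highest score in replicate 5 (0.015, against 0.011 in replicate 2), whereas the large subunit members kept replicate 2 highest (0.036). As deposited, both subunits were highest in replicate 2, at 0.050 for the large and 0.031 for the small.

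Probe sets that do not represent a member gave the same replicate as the highest. Of 51 other probe sets of members above background on every array, replicate 2 was highest in 28 (54.9%), and of the 106 with several symbols in 44 (41.5%). They share the arrays and many of their target sequences with the members. The control probe sets moved too: the bacterial dap, lys, phe and thr controls averaged 8.12, 9.25, 8.86, 8.02 and 8.59 in replicates 1 to 5, and the 18S ribosomal RNA controls 10.91, 11.65, 10.71, 10.87 and 11.02, both highest in replicate 2. The bioB and bioC hybridisation controls averaged 12.57, 11.79, 11.63, 11.77 and 11.72, highest in replicate 1. The 3′ minus 5′ difference of Gapdh was 1.27, 1.52, 1.67, 1.39 and 1.60 log2 units, and that of Actb 0.60, 0.54, 0.84, 0.55 and 0.56, lowest in replicate 2. The list of p53 targets and cell cycle genes scored 0.41, −0.19, −0.28, 0.29 and −0.22, highest in replicates 1 and 4. Over the replicates, its genes Mdm2 and Cdkn1a read 12.27 to 12.55 and 11.48 to 11.75. Ccnd1 read 11.93 to 12.63, and Mki67 read 10.40 to 11.86. Among cell type lists, replicate 2 had the highest score of club and secretory markers (0.35) and positive scores of fibroblast (0.30), ciliated (0.27) and alveolar type 1 markers (0.13), while alveolar type 2 (−0.042), endothelial (−0.12) and erythroid markers (−0.17) were negative and immune markers near 0 (0.0047). The part of these in the result was not tested.

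The other genes of the pathway, from lists that included no member, were all called: 15 of 15 RNA polymerase I genes, 50 of 50 genes of ribosomal RNA processing and ribosome assembly, 15 of 15 measured elongation factors and other TOP messages, and 18 of 18 measured regulators of these messages, beside 74.5% of all genes. With organ-restricted genes as background, which called 53.8% of all genes, 12 of 15 RNA polymerase I and 45 of 50 processing and assembly genes were called. Fau, which encodes a small subunit protein fused to a ubiquitin-like sequence and falls outside the name pattern, read 14.18, 14.36, 14.27, 14.29 and 14.23, also highest in replicate 2. Score ranges were 0.099 for RNA polymerase I, 0.089 for processing and assembly, 0.080 for elongation factors and TOP messages, and 0.060 for the regulators. In none of these 4 lists did a gene pass the spread test (limma-based F test, adjusted p); at an unadjusted p under 0.05 it called 2 assembly genes, Dkc1 and Grwd1, and 0 in the other 3.

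The elongation factors and other TOP messages were highest in replicate 3 (0.034) and lowest in replicate 1 (−0.045). There 8 of the 15 had their lowest value, against 22.8% of all genes called. The regulators were also highest in replicate 3 (0.033) and lowest in replicate 1 (−0.027). Mitochondrial ribosomal protein genes, whose products form the separate ribosome of mitochondria, were called in 76 of 76. They scored 0.024, 0.038, −0.055, −0.030 and 0.032, a range of 0.093. Of the 76, 36 were lowest in replicate 3, against 24.6% of all genes called. The cytosolic members had 7 of 45 lowest there. Differences between these lists were not tested.

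**Figure D5:**
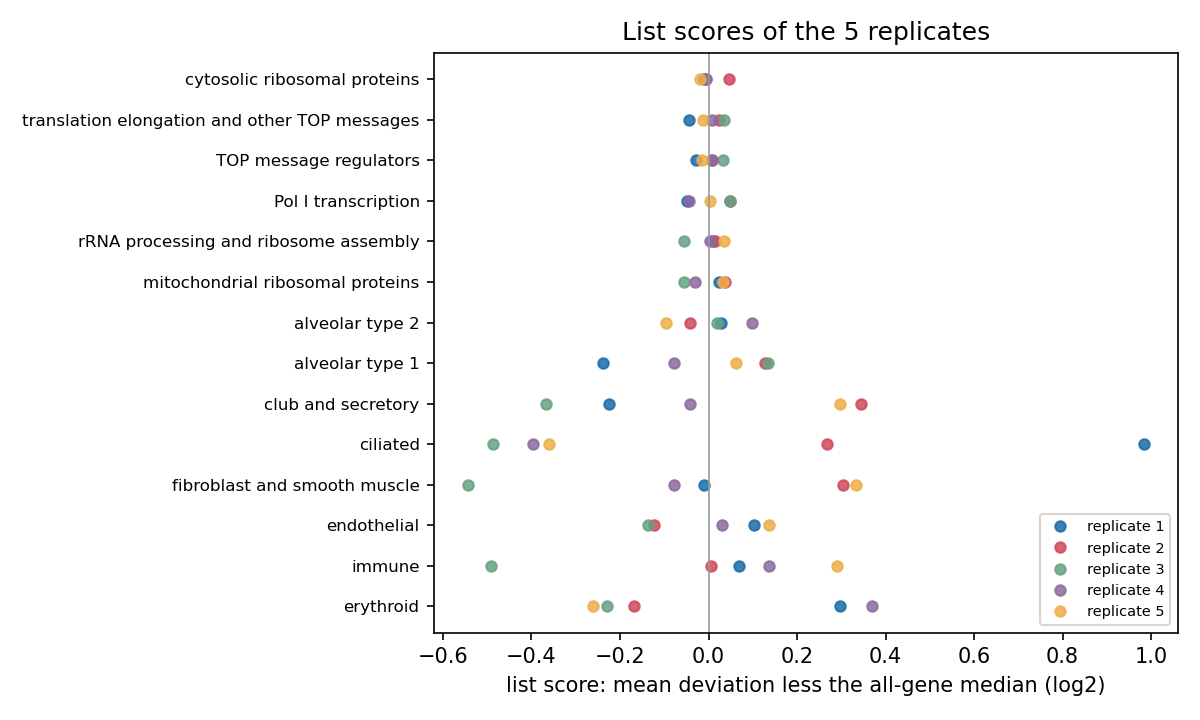
List scores in log2 units (horizontal axis) for ribosome-related lists and cell type markers (rows), with 1 coloured point per replicate. The cytosolic ribosomal proteins span 0.065, while the cell type lists span 0.19 (alveolar type 2) to 1.47 (ciliated).

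Set beside the cell type markers, the score of the ribosomal protein genes had a narrow range (0.065). This was not particular to them: the 583 other genes with means over 13 had a range of 0.071, and the regulators of TOP messages 0.060. Each score is an average over its list, of 45 called members and from 3 (erythroid) to 21 (ciliated) called markers. Marker lists ranged from 0.19 log2 units for alveolar type 2 to 1.47 for ciliated cells, with 0.88 for fibroblast and smooth muscle and 0.78 for immune genes. Ciliated markers were highest in replicate 1, at 0.98, and there the ribosomal score was −0.0095. In replicate 3 the fibroblast and immune lists scored −0.54 and −0.49, and the ribosomal score was −0.0055. In replicate 2, where the ribosomal score was highest (0.046), the club list was at its highest too (0.35). The lists sit at different signals, with a median mean of 14.25 for the members and 9.10 for the ciliated markers, so their ranges stand side by side and were not tested against each other.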

How the data were processed

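Total RNA of sorted cells was amplified with a NuGEN Ovation kit, labelled with biotin and read on Affymetrix arrays in one colour, per the labels' protocols. The deposited values are 1 log2 signal per probe set and array; the log base was inferred from their range, and how the authors corrected and normalized the signals is not given in the sources used here. Values were used as deposited. Of 45101 probe sets, 34958 had 1 gene symbol in the platform annotation, 932 several and 9211 none. Tests used limma 3.58.1 (R 4.3.3) over all 18194 genes: a one-sided moderated test against the 95th percentile of 76 receptor genes, of which 4 were called, and an F test of the variance on 4 and 3.86 degrees of freedom over the 13555 genes called. Both were also run on simulated data. Noise there had a common SD for all genes but those given a larger one, unlike the deposited values. That run therefore does not show how the tests perform here.

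Named members are those not called, the 8 with the largest and 4 with the smallest SD, paralogues and their partners, a list of role anchors, and the 5 with the widest gap between probe sets. Members and lists were chosen with earlier results of these data known. Alternatives changed the background, the probe set of a gene, the normalization, the filter, the variance model and the replicates. Arrays give no counts, so their number limits the precision.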

Additional observations from a re-analysis of the deposited data

Results flagged for a closer look

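The score of the ribosomal protein genes had 1 replicate far from the others: replicate 2, at 0.046, stood 0.79 of the whole range away from the next value, above Dixon's limit of 0.71 for 5 samples. The distance fell short of the limit under 8 of 12 settings. Among these 8 were quantile normalization (0.70), the median over probe sets (0.28) and members with means over 13 alone (0.51). Median centring, another of the 12, cannot change this score. Chance alone puts about 1 in 20 groups past this limit. Of the 49 members taken singly, 0 had such a replicate.

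Probe sets with several symbols, of which at least 1 was a ribosomal protein symbol, were not used for any gene. The 110 had means from 3.03 to 14.81, and 106 of them gave a signal above background on every array.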

How the results depend on the processing

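The count of 45 members above background was 44 to 46 under other backgrounds, 45 under the other settings that kept all probe sets, and 23 of 26 when probe sets ending in _x_at, _s_at or _a_at were left out, since fewer genes then had one. The range of the score, 0.065, was 0.098 under that restriction, where the median SD was 0.096 against 0.040 (0.062 with the median over probe sets), and 0.040 after quantile normalization. Leaving out 1 replicate at a time gave ranges from 0.011 (without replicate 2) to 0.067. Restriction to members with means over 13, or to those with several probe sets, was chosen after seeing the data and gave a range of 0.052 each. The count past the spread test was 0 under each setting run. With the deposited scaling that test called 0 of all 13555 genes above background, so these counts do not tell the members apart from other genes. With the 90th percentile of receptor genes, Rpl37 lay 0.29 log2 units above background (limma adjusted p = 0.0209) and Rpl39l 0.15 above (limma adjusted p = 0.175); with organ-restricted genes, Rpl39 lay at −0.58 (limma adjusted p = 1). The cause of these changes was not tested. Saturation could not be checked without scanner files. No paired analysis was possible because there is 1 group of samples.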
